A study of Arabidopsis thaliana with 7 samples.

Results

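The genes described here are 10 genes of Arabidopsis thaliana whose products build or loosen the wall of the growing root hair, or switch its growth on: PRP1, PRP3, EXPA7 (EXP7 in the deposited table), EXPA18 (EXP18), LRX1, LRX2, XTH14, AGP3, COBL9 and RSL4. They were chosen by name, not by a threshold on their values, but with earlier results of these data known. Each was matched by its symbol in the deposited table. All 10 were found among the 21184 genes of the table, each with 1 transcript model, and all 10 were among the 13301 genes that passed the filter on low values.

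Polyadenylated RNA was sequenced from whole seedlings of 2 genotypes, 3 tt4-11 libraries (replicates 2 to 4) and 4 Col-0 libraries (replicates 1 to 4). The labels describe tt4-11 as flavonoid-deficient through loss of chalcone synthase, the enzyme that opens the flavonoid pathway, and it is a single line; Col-0 is the wild type, and no other treatment distinguished the genotypes. All seedlings were 5 days old and had grown on sucrose-containing agar medium at 22 °C in continuous light, conditions chosen to favour flavonoid production. The labels do not say that replicates came from separate cultures, so the p-values speak of the spread among these samples alone, which may be technical. A further tt4-11 library mentioned in the extraction text was not analysed here. Each library held 2021368 to 2205449 reads in the table, and TT4, which encodes chalcone synthase, stood at 58.0, 96.7 and 54.9 scaled reads in tt4-11, against 3003, 2571, 3148 and 2464 in Col-0. Values are scaled reads, that is reads divided by a factor for each library, so that 1 scaled read is worth about 1 read.

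Root hairs are single-cell outgrowths of the root epidermis that lengthen at the tip. The growing tip needs a wall that is secreted, loosened and cross-linked as it extends: expansins loosen it, xyloglucan-modifying enzymes cut and rejoin its tethers, and proline-rich, extensin-type and arabinogalactan proteins make up its protein part. The basic helix-loop-helix factor RSL4 promotes hair elongation in Arabidopsis, and many hair wall genes carry a short promoter sequence called the root hair element. Because whole seedlings were used, hair cells are a small part of each sample, and fewer hair cells and less RNA per hair cell cannot be told apart.

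The sequences that end at the annotated gene starts show where the root hair element lies in these genes. In the 250 bases upstream of the gene start (RefSeq annotation of TAIR10.1, printed 5′ to 3′ on the gene's own strand), the full root hair element was found in 5 of 10 genes, PRP1, PRP3, EXPA7, EXPA18 and LRX1, against 0.754% of 27443 promoters of the same length. Its core, the letters TG and CACG with 4 or 5 bases of any kind between them on either strand, was found in 7 of 10 genes, the same 5 with XTH14 and COBL9, against 9.02% of all promoters, and in 13 of 21 other root hair wall genes, of which 2 held the full element. No core match lay in this window of LRX2, AGP3 or RSL4, and the G-box letters CACGTG, which can overlap a core match, were in 0 of 10 genes against 6.49% of all promoters. The element was described from root hair genes, EXPA7 among them, so these shares are not independent of how the genes are known; a match is a description of letters. The 5 promoters with the full element and that of LRX2, the relative of LRX1 without a match, are shown with every core match in capitals.
PRP1 (chr1:20504651-20504900, plus strand): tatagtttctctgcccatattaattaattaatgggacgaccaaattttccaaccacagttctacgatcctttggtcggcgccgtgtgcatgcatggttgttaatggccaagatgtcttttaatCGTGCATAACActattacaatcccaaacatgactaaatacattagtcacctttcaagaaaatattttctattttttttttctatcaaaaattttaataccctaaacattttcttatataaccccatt
PRP3 (chr3:23182472-23182721, plus strand): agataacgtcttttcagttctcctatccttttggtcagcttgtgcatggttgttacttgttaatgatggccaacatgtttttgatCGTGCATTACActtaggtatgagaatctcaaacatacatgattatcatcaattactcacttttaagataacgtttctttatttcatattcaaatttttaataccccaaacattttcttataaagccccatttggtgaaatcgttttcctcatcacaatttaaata
EXPA7 (chr1:4276255-4276504, plus strand): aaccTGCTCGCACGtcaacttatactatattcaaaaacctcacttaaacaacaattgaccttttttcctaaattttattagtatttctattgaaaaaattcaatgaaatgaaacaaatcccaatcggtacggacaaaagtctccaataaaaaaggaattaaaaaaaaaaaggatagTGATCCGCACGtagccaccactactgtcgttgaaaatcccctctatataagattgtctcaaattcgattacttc
EXPA18 (chr1:23331313-23331562, plus strand): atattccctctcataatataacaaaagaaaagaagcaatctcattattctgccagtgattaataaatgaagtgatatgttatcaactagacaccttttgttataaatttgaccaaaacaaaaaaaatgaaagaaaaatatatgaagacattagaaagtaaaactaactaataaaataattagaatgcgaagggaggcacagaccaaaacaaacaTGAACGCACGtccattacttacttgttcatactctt
LRX1 (chr1:4069742-4069991, plus strand): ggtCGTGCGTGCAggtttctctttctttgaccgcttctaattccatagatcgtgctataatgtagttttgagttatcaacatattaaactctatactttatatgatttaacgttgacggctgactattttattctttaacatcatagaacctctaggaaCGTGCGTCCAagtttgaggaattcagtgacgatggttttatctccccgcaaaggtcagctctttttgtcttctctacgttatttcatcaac
LRX2 (chr1:23112683-23112932, plus strand): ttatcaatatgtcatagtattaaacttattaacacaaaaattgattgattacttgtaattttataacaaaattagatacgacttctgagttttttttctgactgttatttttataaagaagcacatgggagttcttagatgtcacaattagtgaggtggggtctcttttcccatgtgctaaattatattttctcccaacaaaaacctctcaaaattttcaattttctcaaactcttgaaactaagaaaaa
Counted back from the gene start, the full element lay at -129 to -113 in PRP1 and -167 to -151 in PRP3, both on the opposite strand. It lay at -78 to -62 in EXPA7 and -40 to -25 in EXPA18 on the gene's strand, and at -93 to -78 in LRX1 on the opposite strand.

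In tt4-11 seedlings, 4 of the 10 genes fell and none rose. PRP1, LRX1, AGP3 and XTH14 stood at 54.1% to 63.3% of their Col-0 means. The test was limma on log2(scaled reads + 1) across all 13301 genes, two-sided, with a gene called at a Benjamini-Hochberg adjusted p below 0.05; on this scale a change understates that of low genes. Of all genes tested, 6.55% were called lower and 7.07% higher, so 4 of 10 lower stood above the background share. With 10 genes, 0 called higher is near the background share and says nothing of these genes. Changes of 8 of the 10 lay below 0, against 51.2% of all genes, and their median was -0.68 on the log2 scale, against -0.01 for all genes. In 6 of the 10 the highest tt4-11 library was still below the lowest of Col-0 (12.9% of all genes), and in 1, LRX2, the lowest tt4-11 library was above the highest of Col-0 (13.7%). The 10 genes were chosen with earlier results of these data known, so these shares are not independent of the choice. Without tt4-11 replicate 4, 2 of the 10 genes were called lower, PRP1 and AGP3. Over all genes, that refit called 470 lower, against 871 in the main fit. In the authors' deposited table, 4 of the 10 had an adjusted p below 0.05, and they were these 4 genes. There 2.89% of 23051 models were lower, a share over every model with no filter on low values. It is thus not on the same base as the 6.55% of 13301 genes.

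**Figure D1:**
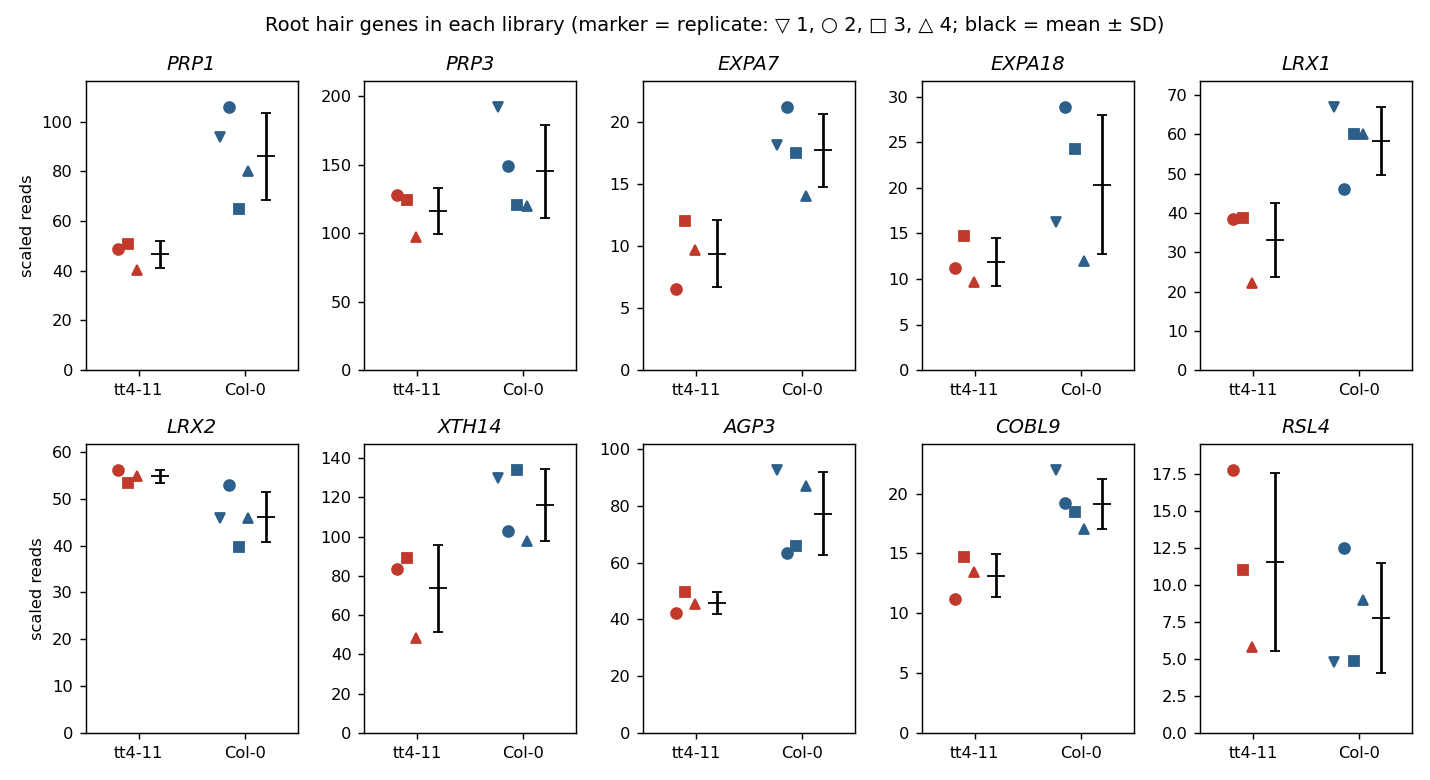
Scaled reads of each of the 10 genes (one panel each, vertical axis from 0) in the 3 tt4-11 libraries (red, left) and the 4 Col-0 libraries (blue, right), with marker shape for the replicate number and black bars for mean ± SD. The red points of PRP1, EXPA7, LRX1, XTH14, AGP3 and COBL9 all lie below the blue ones, those of LRX2 lie above, and the others overlap.

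PRP1 and PRP3 encode proline-rich structural proteins of the wall that are made in root hairs. PRP1 (AT1G54970, chr1:20504901-20506504, plus strand, 2 exons) had 48.7, 50.6 and 40.4 scaled reads in tt4-11, against 93.6, 106, 65.0 and 80 in Col-0. Every tt4-11 library was below every Col-0 library, with tt4-11 replicate 4 lowest and Col-0 replicate 2 highest. PRP1 averaged 46.6 ± 5.40 in tt4-11 (SD, n = 3) and 86.1 ± 17.5 in Col-0 (SD, n = 4), and it fell by 0.86 on the log2 scale (SE 0.18; adjusted p = 0.00599 by limma). PRP1 stayed called under each of the 16 alternative settings in which it was refitted, with changes between -0.98 and -0.75.

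PRP3 (AT3G62680, chr3:23182722-23184042, plus strand, 2 exons) had 128, 124 and 97.3 scaled reads in tt4-11, against 192, 149, 120 and 120 in Col-0. The groups overlapped: tt4-11 replicates 2 and 3 lay above Col-0 replicates 3 and 4. PRP3 averaged 117 ± 16.8 in tt4-11 (SD, n = 3) and 145 ± 33.9 in Col-0 (SD, n = 4), and the change of -0.30 (SE 0.17; adjusted p = 0.252 by limma) did not pass. Read for read, the ratio of PRP1 to PRP3 was 0.380, 0.407 and 0.416 in tt4-11, against 0.488, 0.710, 0.540 and 0.667 in Col-0. The ratio was lower in every tt4-11 library than in any Col-0 library.

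LRX1 and LRX2 encode chimeric proteins with a leucine-rich repeat part and an extensin part, which sit in the root hair wall and act together in hair shape. LRX1 (AT1G12040, chr1:4069992-4072681, plus strand, 1 exon) had 38.4, 38.7 and 22.1 scaled reads in tt4-11, against 66.9, 46.1, 60.2 and 60 in Col-0. Again no tt4-11 library reached the lowest Col-0 library, replicate 2, and tt4-11 replicate 4 was well below the other tt4-11 libraries. LRX1 averaged 33.1 ± 9.45 in tt4-11 (SD, n = 3) and 58.3 ± 8.71 in Col-0 (SD, n = 4), and it fell by 0.83 (SE 0.22; adjusted p = 0.0192 by limma). Without tt4-11 replicate 4 the change was -0.57 and the call was lost (adjusted p = 0.107 by limma).

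LRX2 (AT1G62440, chr1:23112933-23115293, plus strand, 1 exon) had 56.1, 53.4 and 54.9 scaled reads in tt4-11, against 45.8, 52.9, 39.8 and 46 in Col-0. The tt4-11 libraries lay close together and all above the Col-0 ones, but by 0.25 on the log2 scale only (SE 0.17; adjusted p = 0.347 by limma), which did not pass. An exact two-sided permutation test over samples gave p = 0.0571, the smallest it can give, for LRX2 as for each of the 6 genes lower in every tt4-11 library. The ratio of LRX1 to LRX2 reads, with no correction for length, was 0.683, 0.724 and 0.404 in tt4-11, against 1.46, 0.873, 1.51 and 1.30 in Col-0. The ratio was lower in every tt4-11 library than in any Col-0 library, which follows from the separate values of LRX1 and LRX2 and adds nothing to them. Col-0 replicate 2 had the lowest ratio of its group. Neither gene shares a stretch of 100 bases with another annotated transcript, and the same held for all 10 genes.

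EXPA7 and EXPA18 encode alpha-expansins, which loosen the wall without cutting it, and both are known from root hairs. EXPA7 (AT1G12560, chr1:4276505-4277969, plus strand, 3 exons) had 6.55, 12.0 and 9.63 scaled reads in tt4-11, against 18.1, 21.1, 17.5 and 14 in Col-0. All 3 tt4-11 libraries were below the lowest Col-0 library, replicate 4. The change was -0.87 (SE 0.30), close in size to that of PRP1, and it did not pass (adjusted p = 0.0691 by limma). EXPA7 passed the filter on low values through its Col-0 libraries, since 1 tt4-11 and 4 Col-0 libraries had at least 10 scaled reads. Its place in the counts of genes below 0 and of separated libraries is thus not independent of the filter. The pooled reads, 30 in tt4-11 and 73 in Col-0, gave a depth-corrected ratio of 0.536 (95% exact interval 0.338 to 0.830), an interval that covers counting error only.

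EXPA18 (AT1G62980, chr1:23331563-23333246, plus strand, 3 exons) had 11.2, 14.7 and 9.63 scaled reads in tt4-11, against 16.2, 28.8, 24.3 and 12 in Col-0. Col-0 replicate 4 lay between the tt4-11 libraries, so the groups overlapped. The change was -0.68 (SE 0.32; adjusted p = 0.174 by limma), and the ratio of pooled reads was 0.590 (0.391 to 0.875). Both expansin genes overlap an annotated gene on the opposite strand, AT1G12570 for EXPA7 and AT1G62978 for EXPA18; the library kit keeps strand, but whether counting used it is not given in the sources used here.

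XTH14 encodes a xyloglucan endotransglucosylase/hydrolase, an enzyme that cuts xyloglucan chains of the wall and joins the ends anew. XTH14 (AT4G25820, chr4:13130291-13131860, plus strand, 3 exons) had 83.3, 89.3 and 48.2 scaled reads in tt4-11, against 130, 103, 134 and 98 in Col-0. As with LRX1, the groups did not overlap and tt4-11 replicate 4 was far below the other tt4-11 libraries. XTH14 averaged 73.6 ± 22.2 in tt4-11 (SD, n = 3) and 116 ± 18.4 in Col-0 (SD, n = 4), and it fell by 0.69 (SE 0.20; adjusted p = 0.0287 by limma). The call was lost without tt4-11 replicate 4 (-0.41, adjusted p = 0.166 by limma), without Col-0 replicate 3 (-0.62, adjusted p = 0.0802) and with the trend of change along transcript length removed (-0.58, adjusted p = 0.0730).

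AGP3 encodes an arabinogalactan protein, a small and heavily glycosylated protein of the cell surface. AGP3 (AT4G40090, chr4:18580827-18581696, minus strand, 1 exon) had 42.1, 49.7 and 45.3 scaled reads in tt4-11, against 92.7, 63.4, 66.0 and 87 in Col-0. The tt4-11 libraries lay close together and all below Col-0, whose replicates 1 and 4 were high and replicates 2 and 3 low. AGP3 averaged 45.7 ± 3.82 in tt4-11 (SD, n = 3) and 77.3 ± 14.7 in Col-0 (SD, n = 4), and it fell by 0.73 (SE 0.18; adjusted p = 0.0124 by limma). Without tt4-11 replicate 2 the change was -0.67 and just missed the threshold (adjusted p = 0.0542 by limma).

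COBL9 encodes a COBRA-like protein anchored at the outer cell surface, which Arabidopsis root hairs need in order to elongate. COBL9 (AT5G49270, chr5:19971884-19974530, minus strand, 2 exons) had 11.2, 14.7 and 13.5 scaled reads in tt4-11, against 22.0, 19.2, 18.4 and 17 in Col-0. The groups did not overlap, yet the change of -0.51 (SE 0.26) did not pass (adjusted p = 0.207 by limma). Its pooled reads, 42 in tt4-11 and 79 in Col-0, gave a ratio of 0.693 (0.465 to 1.02), an interval that includes 1.

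RSL4, the transcription factor of the 10, was not called. RSL4 (AT1G27740, chr1:9654475-9656089, plus strand, 4 exons) had 17.8, 11.0 and 5.78 scaled reads in tt4-11, against 4.78, 12.5, 4.85 and 9 in Col-0. The groups overlapped, with tt4-11 replicate 2 highest and Col-0 replicate 1 lowest. The change was 0.49 (SE 0.44; adjusted p = 0.490 by limma), between 0.14 and 0.87 with single libraries left out, and the ratio of pooled reads was 1.51 (0.914 to 2.50). At 37 pooled reads in tt4-11 and 32 in Col-0, a fall of RSL4 as large as that of PRP1 lies outside this counting interval, while no change lies inside it.

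**Figure D2:**
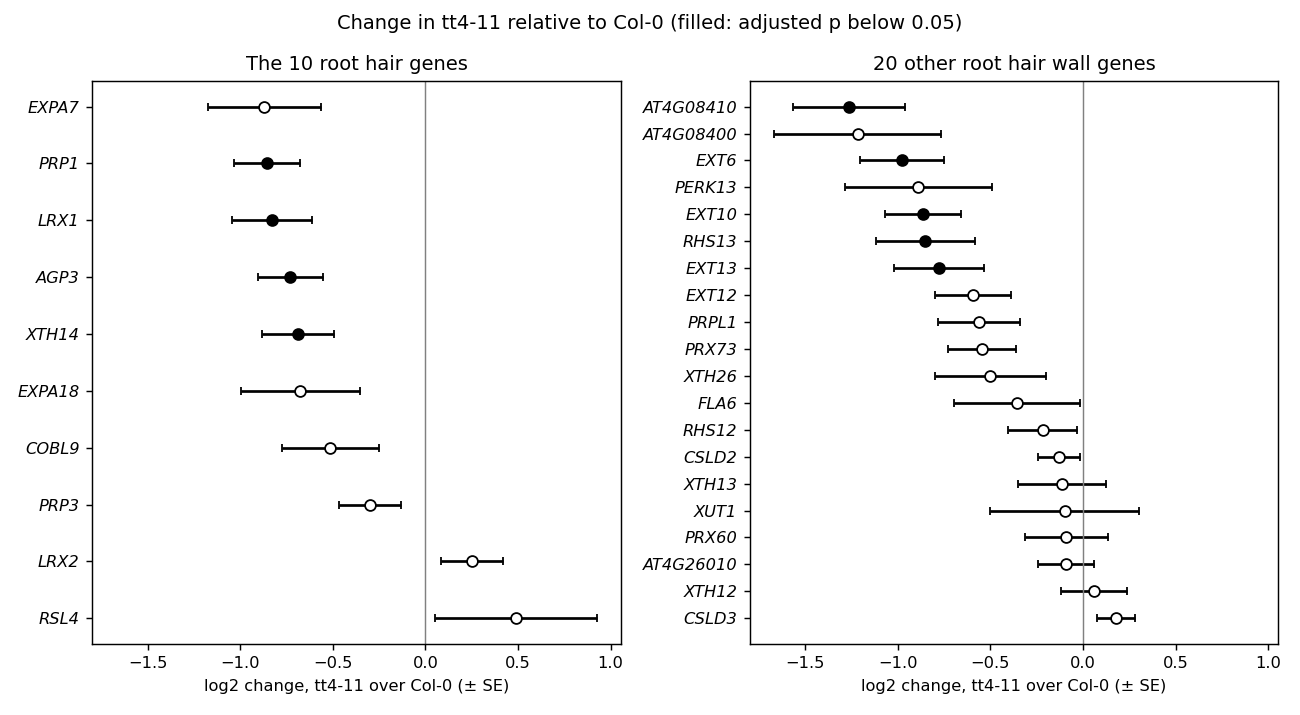
Log2 change of each gene in tt4-11 over Col-0 (horizontal axis, ± SE) for the 10 genes and for 20 other root hair wall genes, filled where the adjusted p is below 0.05. Filled points, all left of 0, are 4 of the 10 genes and 5 of the 20 other genes.

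Compared per kilobase of transcript, so that genes can be set beside each other, PRP3 was the most abundant in both genotypes, with 95.5 scaled reads per kilobase in tt4-11 and 119 in Col-0. XTH14 followed (63.0 in tt4-11, 99.5 in Col-0), then AGP3 (52.5 in tt4-11, 88.8 in Col-0) and PRP1 (33.9 in tt4-11, 62.7 in Col-0). In Col-0 the neighbours PRP3, XTH14, AGP3 and PRP1 overlapped from each to the next, while in tt4-11 PRP3 lay above XTH14 and AGP3 above PRP1 in every library. LRX1 and LRX2 changed places: LRX2 came next in tt4-11 (23.2, LRX1 12.3), LRX1 in Col-0 (21.7, LRX2 19.5, overlapping). EXPA18, EXPA7, COBL9 and RSL4 were lowest in both, from 5.81 to 9.48 in tt4-11 and from 5.82 to 16.3 in Col-0. In Col-0 the levels per kilobase ran from percentile 6.16 (RSL4) to 83.7 (PRP3) of all genes tested.

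Summed over the 10 genes, scaled reads were 444, 458 and 347 in tt4-11, against 682, 602, 550 and 543 in Col-0. The tt4-11 sums were all below the Col-0 sums, and their mean was 70.0% of the Col-0 mean (416 ± 60.7 in tt4-11, SD, n = 3; 594 ± 64.1 in Col-0, SD, n = 4). The genes differed in which library was extreme: tt4-11 replicate 4 was lowest for 5 of 10 and tt4-11 replicate 2 for 3, while Col-0 replicate 1 was highest for 4 and Col-0 replicate 2 for 3. After the mean of each genotype was removed, PRP1 and PRP3 followed the mean of the other 9 genes across the 7 libraries most closely (Pearson r = 0.776 and 0.779, n = 7), XTH14 less (0.438) and AGP3 hardly (0.0174). These r values, across libraries of one fit, describe the libraries only.

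The genes outside the 10 with the most alike profile over the 7 libraries, once genotype means were removed, were AT1G60680, AT3G11800, SSL1, PP2CA (a protein phosphatase of abscisic acid signalling) and AT3G23870, with r between 0.970 and 0.978 (n = 7). They were picked as the highest of 13291 values of r, so values this high owe at least in part to the selection. None was called, and their changes ran from -0.47 (AT1G60680) to -0.11 (PP2CA). The same r had a median of 0.480 over 20 other root hair wall genes and -0.01 over all 13291 tested genes outside the 10.

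**Figure D3:**
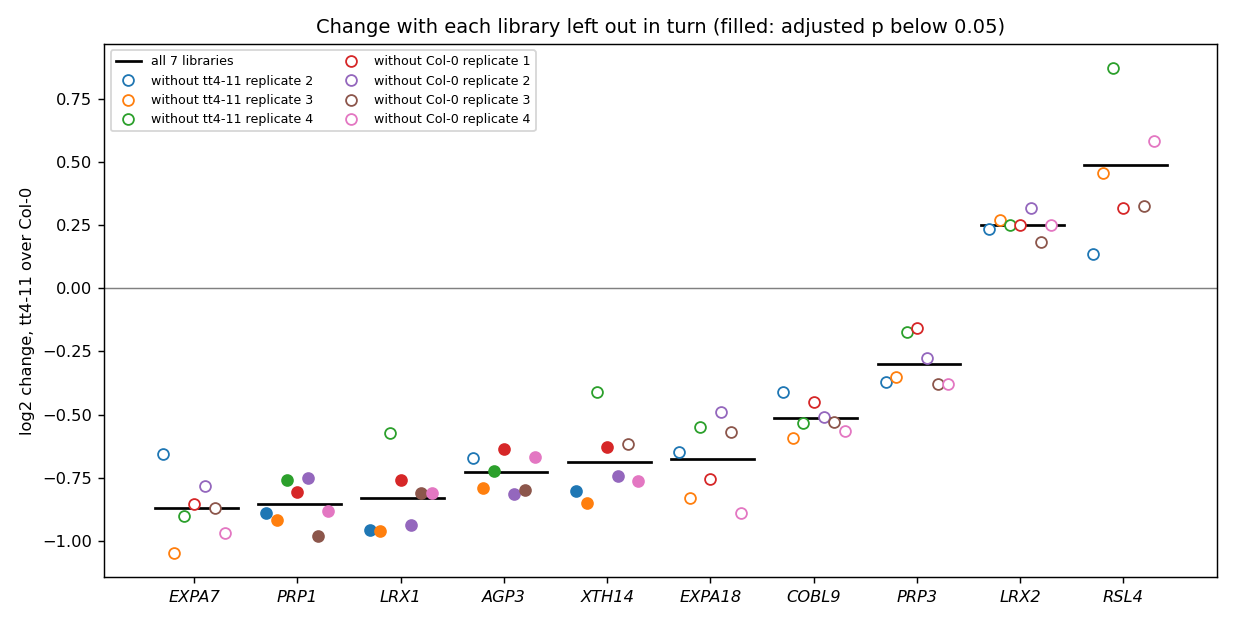
Log2 change in tt4-11 over Col-0 (vertical axis) of each of the 10 genes with all 7 libraries (black line) and with each library left out in turn (coloured points, filled where the adjusted p is below 0.05). PRP1 stays filled throughout, LRX1 and XTH14 open and approach 0 without tt4-11 replicate 4, and RSL4 spans the widest range.

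Among 21 other wall genes of root hairs (extensins, wall peroxidases, xyloglucan enzymes, cellulose synthase-like and fasciclin-like proteins), 20 were in the table and tested, of which 5 fell and 0 rose. The shares over all genes were 6.55% lower and 7.07% higher. This list too was chosen with earlier results of these data known. Of the 20, 18 had a change below 0, against 51.2% of all genes, and the median change was -0.52. The extensin EXT6 fell most firmly, with 41.3 ± 6.53 in tt4-11 and 85.1 ± 29.0 in Col-0 (-0.98, SE 0.23; adjusted p = 0.00972 by limma). EXT10 fell by 0.86 (adjusted p = 0.0110 by limma), with 41.1 ± 4.06 in tt4-11 and 77.6 ± 23.0 in Col-0. AT4G08410, also an extensin, fell by 1.26 (adjusted p = 0.0116 by limma), but it shares 28.6% of its 100-base stretches with AT4G08400, so that its reads are uncertain. AT4G08410 passed the filter on low values through its Col-0 libraries (26.7, 16.3, 18.4 and 26 scaled reads, against 8.42, 6.44 and 10.6 in tt4-11). Its place among the genes that fell is thus not independent of the filter. RHS13 fell by 0.85 (adjusted p = 0.0429 by limma), with 77.5 ± 28.7 in tt4-11 and 140 ± 50.1 in Col-0, and its libraries overlapped. EXT13, named after its values were seen, fell by 0.78 (adjusted p = 0.0438 by limma), and its libraries overlapped too, with 44.9, 25.8 and 27.0 in tt4-11, against 76.4, 42.3, 63.1 and 44 in Col-0.

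Several of these calls changed with single libraries. Without tt4-11 replicate 3 or without tt4-11 replicate 4, 2 of the 20 were called, and without Col-0 replicate 1, 3 were. Over all genes, 437, 470 and 767 were called lower in these refits, against 871 in the main fit. Calls were thus lost across all genes too. DESeq2 on the reads called 2 of the 20 and gave no adjusted p for AT4G08410, and 3 were called once the length trend was removed. Over all genes, DESeq2 called 688 lower, and 637 were called lower with the length trend removed. EXT6 missed the threshold without tt4-11 replicate 4 (adjusted p = 0.0511 by limma), EXT10 and AT4G08410 without tt4-11 replicate 3 (0.0562 and 0.0577), and RHS13 without tt4-11 replicates 2 or 4, Col-0 replicates 1, 2 or 4 (adjusted p up to 0.227), once the length trend was removed (0.109) and with DESeq2 (0.167). EXT13 missed it without tt4-11 replicates 3 or 4 or Col-0 replicates 1 or 3 (adjusted p up to 0.174 by limma), with no filter on low values (0.0546), once the length trend was removed (0.0782) and with DESeq2 (0.0549). The cellulose synthase-like gene CSLD3, which makes wall polysaccharide in hairs, had 421 ± 24.2 in tt4-11 and 372 ± 22.4 in Col-0 and was not called (0.18, and -0.05 once the length trend was removed). XTH12 was not called either (0.06, of either sign with single libraries left out), and both were named after their values were seen.

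The machinery of tip growth that is not wall was described by its own list. Of 23 genes for small GTPases, their activators, kinases, phospholipid enzymes and motors, 20 were in the table and 15 passed the filter, 1 was called higher and 0 lower, and the median change was 0.00. A share of 1 in 15 is near the 7.07% of all genes called higher, and 1 gene was called lower once the length trend was removed. The called gene was OXI1, a protein kinase that responds to oxidative signals, with 42.1 ± 13.9 in tt4-11 and 22.1 ± 2.68 in Col-0 (0.86, SE 0.24; adjusted p = 0.0253 by limma). It was not called without tt4-11 replicate 3 (0.61, adjusted p = 0.167 by limma) or tt4-11 replicate 4 (0.94, adjusted p = 0.0550).

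Regulators above the wall genes were thinly covered. Over all genes 13.6% were called in either direction, so 0 calls among 2 tested genes of a list say nothing of that list. Of 8 root hair helix-loop-helix genes beside RSL4, 7 were in the table and 2 passed the filter, of which 0 were called: LRL1 had 39.8 ± 2.47 in tt4-11 and 52.6 ± 7.71 in Col-0 (-0.39; adjusted p = 0.165 by limma), and LRL2 had 18.5 ± 4.67 in tt4-11 and 18.0 ± 4.74 in Col-0 (0.05; adjusted p = 0.934 by limma). LRL3, named after its values were seen and too low to be tested, had 1, 2 and 1 reads in tt4-11, against 5, 4, 6 and 6 in Col-0. With no filter on low values LRL3 was called lower (-1.45; adjusted p = 0.0483 by limma), and DESeq2 gave it no adjusted p. Summed over the 7 genes, scaled reads ran from 62.6 to 71.8 in tt4-11 and from 76 to 88.8 in Col-0, without overlap. That sum is led by LRL1, which was not called, and says little of the other genes. Of 11 epidermal patterning genes 2 were tested and 0 called, SUB (0.25; adjusted p = 0.334 by limma) and CPC (-0.19; adjusted p = 0.744 by limma). The hair initiation factor RHD6, also untested and named after its values were seen, had 9, 4 and 1 reads in tt4-11, against 5, 6, 7 and 7 in Col-0.

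Relatives of the 10 genes that work mainly outside hairs were also tested. Of 15 tested, 1 rose and 1 fell, shares near those of all genes (7.07% higher, 6.55% lower), with a median of 0.10. XTH24 rose by 0.81 (SE 0.18; adjusted p = 0.00876 by limma), with 368 ± 61.8 in tt4-11 and 214 ± 59.8 in Col-0, opposite in sign to its family member XTH14. AGP4 fell by 0.56 (SE 0.16; adjusted p = 0.0259 by limma), with 63.0 ± 7.13 in tt4-11 and 93.7 ± 13.3 in Col-0, the same sign as AGP3. XTH24 missed the threshold without tt4-11 replicate 4 (adjusted p = 0.0556 by limma), and AGP4 without tt4-11 replicates 3 or 4, Col-0 replicates 3 or 4, or with the length trend removed (up to 0.124).

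Genes listed as markers of other root and shoot cells are set beside these results, but they do not measure the cell makeup. Whether the root genes of this list are absent from hair cells was not tested. Of 14 genes listed as markers of other root cell types, 13 were in the table, 10 were tested and 0 were called. Over all genes 13.6% were called in either direction, so 0 calls in so short a list do not stand apart from that share. Of the 10, 8 had a change below 0, against 51.2% of all genes, and the median change was -0.23. Their summed level ran from 971 to 1027 scaled reads in tt4-11 and from 966 to 1063 in Col-0, a mean of 99.4% of Col-0. That sum is led by SCR (301 in tt4-11, 250 in Col-0), PHO1 (247 in tt4-11, 238 in Col-0) and AKT1 (176 in tt4-11, 179 in Col-0). It says little of the less abundant markers. The pair with the lowest p were SHR, a stele gene (-0.55; adjusted p = 0.104 by limma, but -0.74 and called without Col-0 replicate 4, adjusted p = 0.0205), and TIP2;3, a tonoplast aquaporin (-0.91; adjusted p = 0.132 by limma). Of 9 shoot epidermis markers, 7 were tested and 0 called, which does not stand apart from the 13.6% of all genes either. Their summed level ran from 1897 to 2078 in tt4-11 and from 1630 to 2108 in Col-0. The lowest p were those of TMM and SPCH. TMM changed by -0.52 (adjusted p = 0.0841 by limma), but by -0.66 and with a call without Col-0 replicate 4 (adjusted p = 0.0248 by limma). SPCH changed by 0.52 (adjusted p = 0.295 by limma). The share of hair cells in the seedlings, and its part in the lower wall genes, was not tested.

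**Figure D4:**
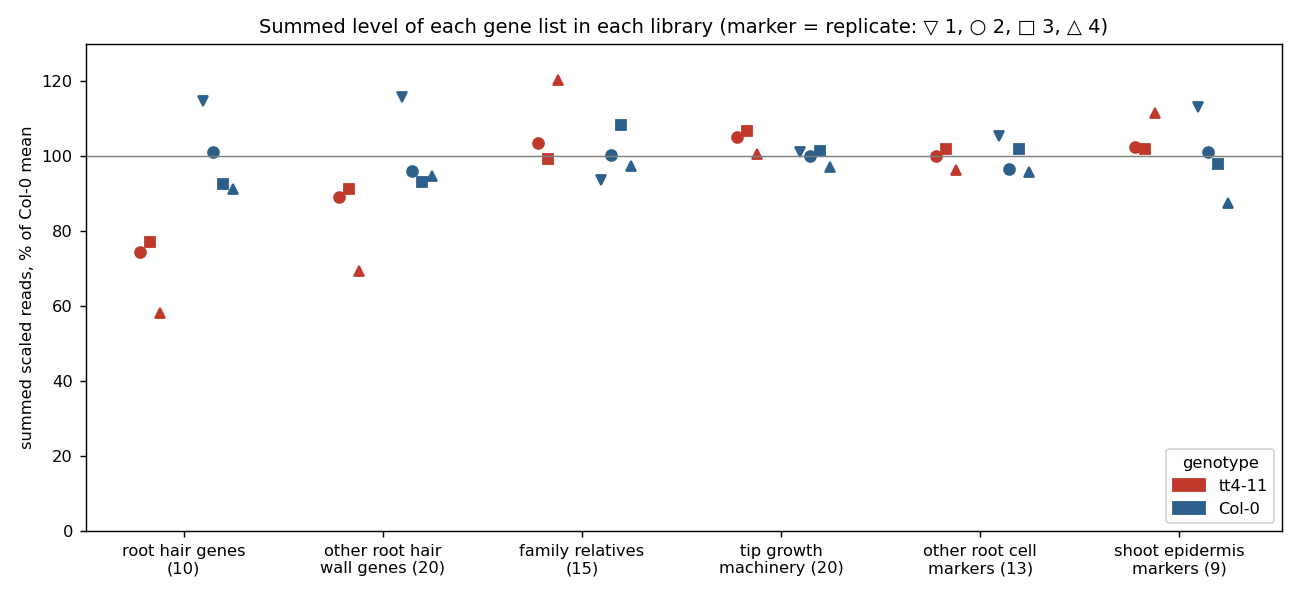
Summed scaled reads of each gene list in each library as a percent of the Col-0 mean (vertical axis from 0), tt4-11 in red on the left and Col-0 in blue on the right of each list, marker shape for replicate number, with the number of genes in the table in brackets. The 3 tt4-11 libraries lie below the Col-0 libraries for the 10 genes and for the other root hair wall genes, and within or above the Col-0 range for the other 4 lists plotted. The root hair helix-loop-helix list, whose tt4-11 sums also lay below those of Col-0, and the epidermal patterning list are not plotted.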

How the data were processed

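The deposited signal values are read counts per transcript model that the authors scaled by a factor for each library, as the values show: 100% of them are whole multiples of 1 step a library, within a tolerance of 0.01. The submitters' processing notes name the aligners TopHat2 and HISAT2, then HTSeq and DESeq2, and neither versions nor a genome build were found in the sources used here. The labels give stranded polyA libraries of 100-base single reads. Models were summed per gene and tested as log2(sum + 1). The function filterByExpr (minimum count 10) set which genes were tested, and limma 3.58.1 with trend (R 4.3.3, two-sided, Benjamini-Hochberg over 13301 genes) compared 3 tt4-11 with 4 Col-0 libraries. Dividing each value by its step gave back the reads, on which edgeR 4.0.16 and DESeq2 1.42.0 were run as alternatives; edgeR could not be the main test because the deposited values are not counts. Over all genes edgeR called 855 lower and 1008 higher, against 871 and 940 by limma.

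The authors' deposited log2 fold changes, the score (fold change over its error) and the deposited p-value columns served for comparison only. Positions, promoters and shared 100-base stretches come from the RefSeq annotation of TAIR10.1, which may not be the authors' build. Other alternatives were TMM factors, 2 other filters, a pseudocount of 0.1, the model with most reads per gene, removal of a loess trend with transcript length (span 0.3), an adjusted p of 0.01, the replicate number as a block, and each library left out in turn. The scripts were tested on simulated data. Reads of any 2 libraries of a genotype differed beyond sampling noise (chi-square 2.05 to 5.44 per degree of freedom). The highest values were those of Col-0 replicate 1 against the other Col-0 libraries (4.33 to 5.44). Intervals cover counting error only.

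Named genes are TT4, the 10 genes, from each other list up to 4 called genes by ascending p (or its first 2 tested genes, if it held no call), and the 5 genes of most alike profile. The 10 genes and the lists were chosen with earlier results of these data known.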

Additional observations from a re-analysis of the deposited data

How the results depend on the processing

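Of 154 refits of the 10 genes with an adjusted p, 149 kept direction and call, 5 lost a call and 0 reversed. The losses were LRX1 (1), AGP3 (1) and XTH14 (3), as given in the report. DESeq2 gave no adjusted p for EXPA7, EXPA18, COBL9 and RSL4, and RSL4 has no value under a filter of at least 10 scaled reads in every library of 1 genotype or without Col-0 replicate 2. Of the 10 genes, 4 were called lower with edgeR, DESeq2, TMM factors and the replicate block, 2 to 4 with single libraries left out, and 1 at an adjusted p of 0.01. Over all genes, with single libraries left out, 437 to 857 were called lower and 426 to 925 higher, and at an adjusted p of 0.01 there were 314 and 394. In the other lists 6 genes were called lower, 5 of them among the 20 other root hair wall genes, and 2 higher. Over all genes tested the shares were 6.55% lower and 7.07% higher, and the remaining lists had no call or stood near these shares. Over the other lists, 4 were called lower with the replicate block, 3 with DESeq2 and 1 at 0.01, where 1 was called higher. Leaving out single libraries gave 2 to 7 lower and 0 to 2 higher. Among genes that were never called, LRL2 reversed to -0.06 without tt4-11 replicate 3, -0.06 without tt4-11 replicate 4 and -0.14 without Col-0 replicate 3 (range with single libraries left out -0.14 to 0.26), and PP2CA to 0.0023 without tt4-11 replicate 4 (range -0.25 to 0.0023); the cause was not tested. SHR and TMM gained a call without Col-0 replicate 4, as given in the report. Pairing of libraries of the same number was weak at most: their deviations correlated at 0.0527, 0.0636 and 0.0413. Each correlated best with its own number, and libraries of unlike number ran from -0.0567 to 0.0027. Only Col-0 has a replicate 1, so the replicate block takes up that library, and the changes equal those without Col-0 replicate 1. With the replicate block PRP1 stood at -0.81, LRX1 at -0.76, AGP3 at -0.64 and XTH14 at -0.63, all called, and RHS13 and EXT13 were not (adjusted p = 0.0644 and 0.0949 by limma). EXPA7, EXPA18, COBL9 and RSL4 rest on 30 to 84 pooled reads a genotype; the part of depth in their missing calls was not tested.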
